A study of Mus musculus with 4 samples.

Results

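The genes described here encode the membrane proteins of the lysosome and its proton pump, with a few proteins that sort or process lysosomal cargo. They were chosen by symbol from the annotated probe sets of an expression array: every probe set with 1 gene symbol that names a subunit of the vacuolar proton pump (V-ATPase), a lysosomal membrane glycoprotein, a transporter or channel of that membrane, a ceroid lipofuscinosis protein or a sorting factor. Of the 19938 genes tested, 56 were members. Where a gene had several probe sets, the one with the highest mean over the 4 arrays was kept. That choice arose for 3 members, so the mean level chose the probe set and the difference between groups did not enter. The set itself was proposed with results of these arrays known, so the counts below describe these genes and are not independent evidence that lysosomal genes respond.

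The samples were E14 mouse embryonic stem cells (strain inbred 129), profiled on Affymetrix MoGene 1.0 ST arrays, 2 arrays with Kdm2b knocked down and 2 control arrays. Kdm2b is a histone demethylase that binds unmethylated CpG-rich DNA and belongs to a variant of Polycomb repressive complex 1, and the series asks how it maintains the stem cell state. Both groups grew on 0.1% gelatin with 15% serum and leukemia inhibitory factor at 1000 units/ml. Lentiviral vectors were given at 10 MOI in the labels' protocol, and puromycin at 2 µg/ml was added after 48 h to select transduced cells. The labels name neither the vector in the control cells nor the knockdown sequence, and they do not say whether the replicates were separate cultures. The p-values therefore measure only the spread between these arrays, which may be technical.

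Kdm2b had log2 values of 9.20 and 9.19 in knockdown cells, against 10.74 and 10.64 in control cells, so its log2 fold change was -1.495, with SE 0.0661 and adjusted p = 0.0039. Of 10 stem cell markers, 0 passed the threshold, and their mean log2 level was 13.15 to 13.18 in knockdown and 13.13 on each control array. The largest differences among them were those of Klf4 (0.30, adjusted p = 0.0514) and Utf1 (0.17, adjusted p = 0.153). Klf4 was called higher after quantile normalization (adjusted p = 0.042) and with genes of low mean level left out (adjusted p = 0.0375). It was also called higher with an intensity trend in the prior (adjusted p = 0.0396). Pou5f1, Sox2 and Nanog, the core factors, had log2 fold changes of 0.08, -0.135 and 0.14. Array medians over all probe sets were 8.55 and 8.53 in knockdown and 8.49 and 8.51 in control. The number of arrays limits the precision.

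Lysosomes are acidic organelles that degrade macromolecules delivered by endocytosis and autophagy. The V-ATPase acidifies them: its cytosolic V1 sector hydrolyses ATP and its membrane V0 sector carries protons into the lumen. Heavily glycosylated proteins line the membrane from within, and transporters and channels export amino acids, sugars, lipids and ions. Transcription factors of the TFE family (Tfeb, Tfe3 and Mitf) are known to activate many of these genes through an E-box motif in their promoters, and in mouse embryonic stem cells folliculin and Tfe3 are known to act in the decision to leave the stem cell state.

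Lysosomal membrane genes were lower after Kdm2b knockdown more often than higher. Of the 56 members, 20 fell, 2 rose and 34 passed the threshold in neither direction (limma, adjusted p under 0.05 over all 19938 genes). Over all genes tested, 7.19% were called lower and 5.00% higher, and the share called lower among the members was 35.7%. Among genes above the median of the mean log2 value over all probe sets, 19 of 45 members were lower, against 1240 of 11516 genes. The median log2 fold change was -0.2125 among the members, against 0.03 over all genes. Both knockdown arrays lay below both control arrays for 33 members, where 25.0% of all genes did, and above them for 10, where 33.8% of all genes did. Bulk RNA cannot tell fewer cells of a type from less RNA per cell.

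The falls were moderate in size. Among the 20 members that fell, log2 fold changes ran from -1.005 to -0.275 with a median of -0.575, and 10 of them fell at least 1.5-fold. The direction of all 22 called members held when any array was left out, but none was then called, with adjusted p-values of 0.196 to 0.303. Their calls were also lost when every probe set of the table was tested together (adjusted p from 0.0679 to 0.133).

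**Figure D1:**
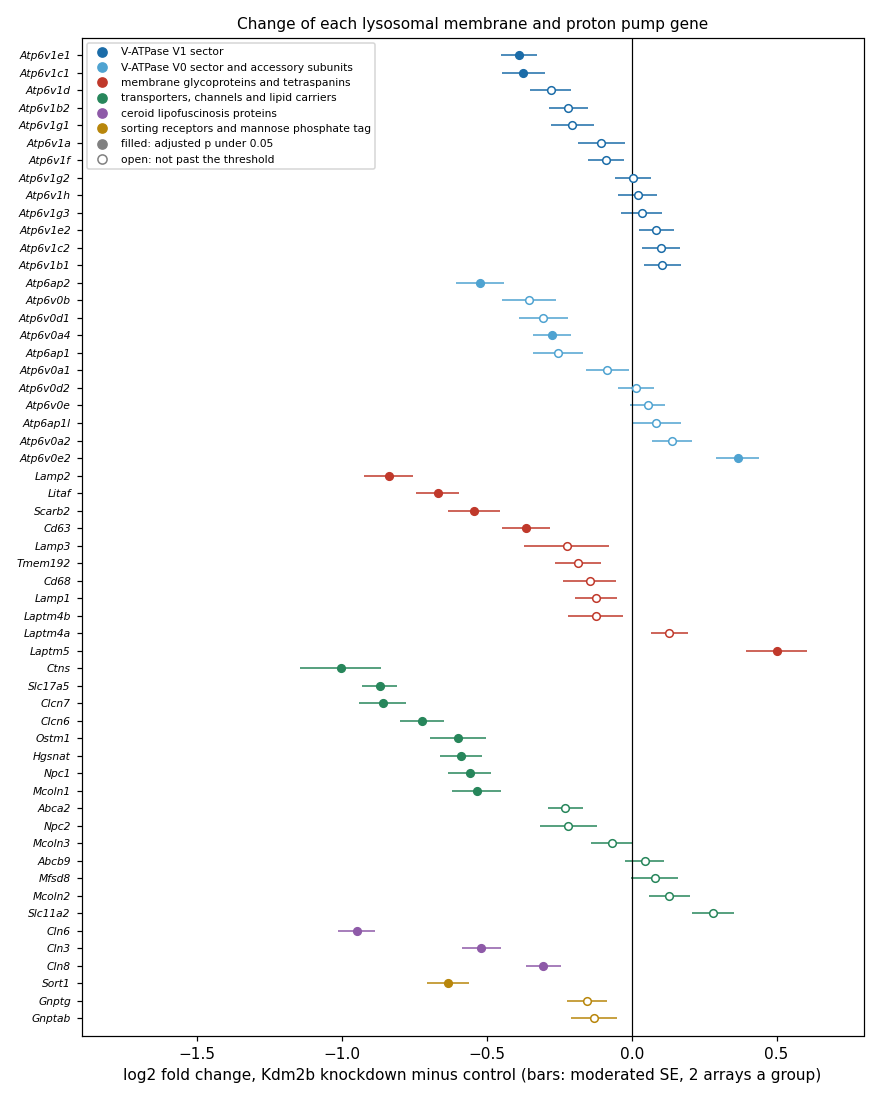
Log2 fold change of each of the 56 members, knockdown minus control, grouped and coloured by role, with bars for the moderated SE. Filled points passed the threshold (20 lower, 2 higher), and most of them belong to the transporters, membrane glycoproteins and ceroid lipofuscinosis proteins.

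Of the 15 transporters, channels and lipid carriers, 8 fell, 0 rose and 7 did neither, with a median log2 fold change of -0.535. Ctns, the exporter of cystine from the lysosome, had log2 values of 10.53 and 10.23 in knockdown cells, against 11.54 and 11.23 in control cells. The groups did not overlap, although the arrays within each group stood about as far apart as for any member here. The log2 fold change of Ctns was -1.005, with SE 0.139 and adjusted p = 0.0133, so the control level was 2.01-fold the knockdown level. Slc17a5, the sialic acid exporter sialin, stood at 10.95 and 10.97 in knockdown and at 11.85 and 11.81 in control (-0.87, SE 0.0607, adjusted p = 0.00492). Its replicates lay close together in both groups.

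The chloride-proton exchangers of the endolysosomal membrane fell along with a partner subunit. Clcn7, the lysosomal exchanger, had log2 values of 10.30 and 10.19 in knockdown and 11.18 and 11.03 in control (log2 fold change -0.86, SE 0.0803, adjusted p = 0.00646). Ostm1, the subunit that Clcn7 needs for its stability, stood at 10.72 and 10.50 in knockdown and 11.28 and 11.14 in control (-0.60, SE 0.0963, adjusted p = 0.018). For both genes each knockdown array lay below each control array. Clcn6, the exchanger of late endosomes, stood at 11.04 and 10.92 in knockdown and 11.76 and 11.65 in control (-0.725, SE 0.0759, adjusted p = 0.00767). The log2 ratio of Clcn7 to Ostm1 on the same array was -0.42 and -0.31 in knockdown, against -0.10 and -0.11 in control, a change of -0.26 in their ratio. With 2 arrays a group an exact permutation test of such a ratio cannot go below p = 0.333, and no difference between members was tested.

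Mcoln1, the lysosomal calcium channel TRPML1, had log2 values of 12.42 and 12.37 in knockdown and 13.03 and 12.83 in control (log2 fold change -0.535, SE 0.0844, adjusted p = 0.0176). Its paralogs did not pass the threshold: Mcoln3 had a log2 fold change of -0.07 (95% interval -0.2415 to 0.1015) and Mcoln2 of 0.13 (-0.04768 to 0.3077). Both paralogs lay below 8.52, the median of the mean log2 value over all probe sets, under which genes are called dim here.

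Npc1 carries cholesterol out of the lysosome, taking it over from the soluble carrier Npc2. It stood at 11.48 and 11.47 in knockdown and at 12.11 and 11.96 in control (log2 fold change -0.56, SE 0.0737, adjusted p = 0.012). Npc2 stood at 10.40 and 10.21 in knockdown and at 10.62 and 10.43 in control (-0.22, 95% interval -0.4612 to 0.02117, adjusted p = 0.2). Both genes had the knockdown arrays below the control arrays, but the Npc2 replicates of each group differed by nearly as much as the groups did.

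Hgsnat, the membrane enzyme that acetylates heparan sulfate with acetyl groups from the cytosol, fell. Its log2 values were 9.44 and 9.54 in knockdown and 10.13 and 10.03 in control (log2 fold change -0.59, SE 0.0722, adjusted p = 0.0104). The 7 uncalled genes of this role ran from -0.23 to 0.28. At the ends of that range were Abca2, a lipid transporter (-0.23, adjusted p = 0.0618), and Slc11a2, the iron transporter DMT1 (0.28, adjusted p = 0.0605). Slc11a2 stood at 11.09 and 11.07 in knockdown and 10.73 and 10.87 in control, and it was called higher after quantile normalization (0.31, adjusted p = 0.0445) and with dim genes left out (0.28, adjusted p = 0.0433). Abca2 was called lower with each array centred on its median (-0.27, adjusted p = 0.0428) and with dim genes left out (-0.23, adjusted p = 0.0408).

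Among the 11 membrane glycoproteins and other small membrane proteins, 4 fell, 1 rose and 6 did neither, with a median log2 fold change of -0.185. Lamp2, a membrane glycoprotein used in autophagosome fusion and chaperone-mediated autophagy, had log2 values of 11.00 and 10.84 in knockdown cells, against 11.82 and 11.70 in control cells. Lamp2 fell by 0.84 (SE 0.0831, adjusted p = 0.00701), a control level 1.79-fold that of knockdown, and its groups stood well apart. Lamp1, the related and widely used lysosome marker, stood at 13.08 and 13.11 in knockdown and 13.29 and 13.15 in control. Its log2 fold change was -0.125 (95% interval -0.3031 to 0.05312, adjusted p = 0.305). The log2 ratio of Lamp2 to Lamp1 on the same array was -2.08 and -2.27 in knockdown and -1.47 and -1.45 in control, a change of -0.715 in their ratio.

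Litaf, an adaptor of late endosomes, had log2 values of 10.47 and 10.48 in knockdown and 11.22 and 11.07 in control (log2 fold change -0.67, SE 0.0737, adjusted p = 0.00852). Scarb2, the membrane protein LIMP-2 that carries glucocerebrosidase to the lysosome, stood at 10.75 and 10.63 in knockdown and 11.33 and 11.14 in control (-0.545, SE 0.0883, adjusted p = 0.0185). For both genes the knockdown arrays lay below the control arrays. Cd63, a tetraspanin of late endosomes and exosomes, stood at 11.35 and 11.29 in knockdown and 11.78 and 11.59 in control (-0.365, SE 0.083, adjusted p = 0.0436). Its fall was the nearest to the threshold in this role, and its log2 fold change lay between -0.46 and -0.27 when single arrays were dropped.

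Laptm5, a lysosomal membrane protein known from blood cells, went the other way. Its log2 values were 13.36 and 13.17 in knockdown cells and 12.88 and 12.65 in control cells, without overlap, and it rose by 0.50 (SE 0.105, adjusted p = 0.0358). Its paralogs did not pass: Laptm4a had a log2 fold change of 0.13 (adjusted p = 0.23) and Laptm4b of -0.125 (adjusted p = 0.423). Of 12 macrophage and blood markers, 11 were dim, 0 were higher and 1, the transcription factor gene Spi1, was lower (-0.36, adjusted p = 0.0472). Their mean log2 level was 7.483 to 7.554 in knockdown and 7.454 to 7.46 in control, and their part in the Laptm5 result was not tested. Cd68, a glycoprotein used as a macrophage marker, had a log2 fold change of -0.145 (adjusted p = 0.344), with overlapping groups.

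**Figure D2:**
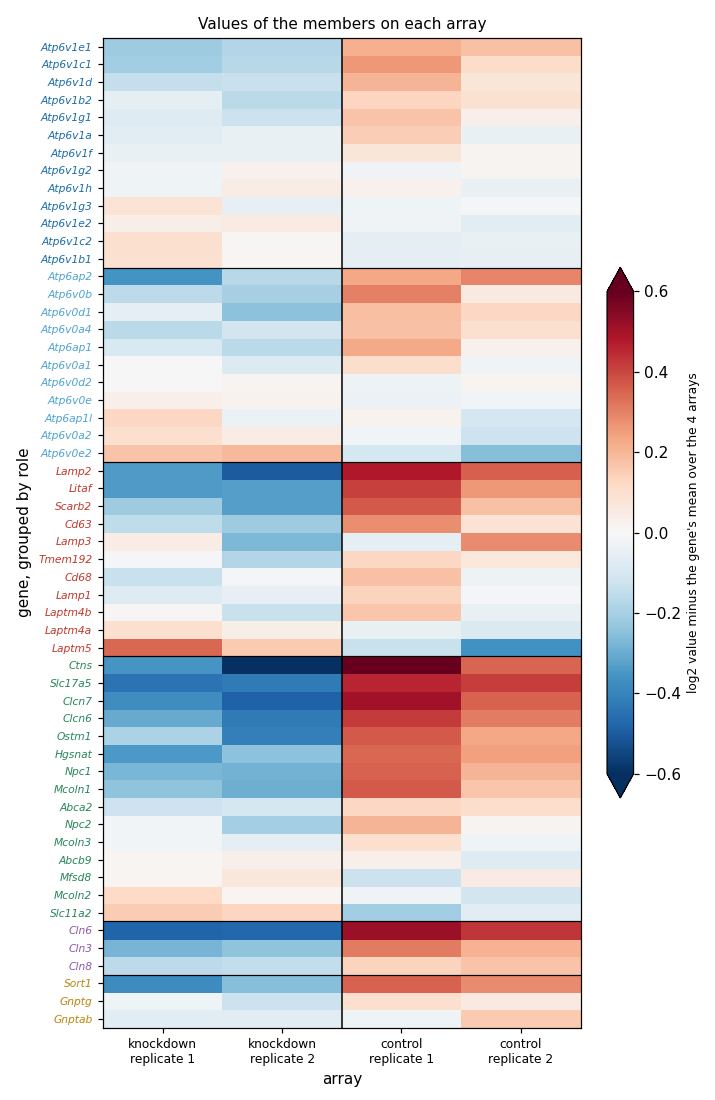
Log2 value of each member on each array minus that gene's mean over the 4 arrays, with knockdown arrays left of the line and control arrays right of it, grouped by role. The 8 transporters that fell, Lamp2, Litaf and the ceroid lipofuscinosis proteins are low on both knockdown arrays, and control replicate 1 is higher than control replicate 2 for 44 of the 56 genes.

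All 3 measured members with a Cln symbol, named for neuronal ceroid lipofuscinosis, a group of lysosomal storage diseases of the brain, fell. The role was set by symbol. Mfsd8, a gene of these diseases counted with the transporters, did not pass the threshold (0.08, adjusted p = 0.553). Cln6, a membrane protein of the endoplasmic reticulum that helps newly made lysosomal enzymes to leave it, had log2 values of 11.58 and 11.59 in knockdown and 12.58 and 12.49 in control. It fell by 0.95 (SE 0.0649, adjusted p = 0.0049), a control level 1.93-fold that of knockdown, and after Ctns this was the largest fall of any member. Cln8, which acts with Cln6 in the same step, stood at 9.61 and 9.62 in knockdown and 9.90 and 9.94 in control (log2 fold change -0.305, SE 0.0605, adjusted p = 0.0307). Cln3, a lysosomal membrane protein affected in juvenile Batten disease, stood at 11.05 and 11.09 in knockdown and 11.64 and 11.54 in control (-0.52, SE 0.0671, adjusted p = 0.0117). The groups of all 3 genes were apart, and the replicates of each group lay at most 0.10 apart.

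Among the sorting factors, Sort1, a receptor that carries proteins from the Golgi to endosomes, had log2 values of 10.24 and 10.36 in knockdown and 10.97 and 10.90 in control (log2 fold change -0.635, SE 0.0718, adjusted p = 0.00875). Gnptab and Gnptg, subunits of the enzyme that starts the mannose phosphate tag on lysosomal hydrolases, had log2 fold changes of -0.13 (adjusted p = 0.325) and -0.155 (adjusted p = 0.192). The values of both lay below control on both knockdown arrays, by less than the test could separate from the spread.

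In the proton pump most genes passed the threshold in neither direction. Of its 24 members, 4 fell, 1 rose and 19 did neither, with a median log2 fold change of -0.0875. The share called lower was 18.2% of the V0 and accessory genes and 15.4% of the V1 genes, against 7.19% of all genes tested. Among genes that were not dim, 1 of 8 V0 and accessory genes and 2 of 9 V1 genes were lower, against 1240 of 11516 genes. Most of all genes tested, 17507 of 19938, also passed in neither direction. The 32 members outside the pump had 16 lower, 1 higher and a median of -0.2675. The difference between these groups of genes was not tested.

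**Figure D3:**
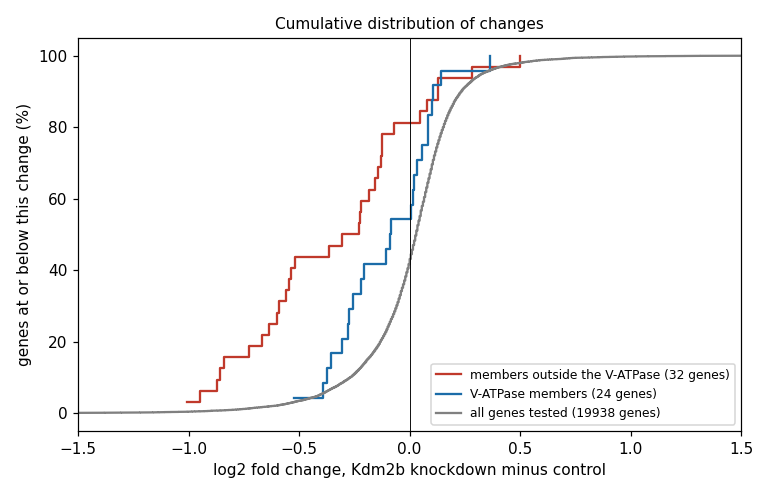
Cumulative share of genes (%) at or below each log2 fold change, knockdown minus control, for the 32 members outside the V-ATPase, the 24 V-ATPase members and all 19938 genes tested. Over most of its range the curve of the members outside the pump lies furthest to the left (median -0.2675), that of the pump between (median -0.0875) and that of all genes to the right (median 0.03).

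In the V1 sector 2 of 13 genes fell and 11 did neither. Atp6v1e1, a subunit of the peripheral stalk, had log2 values of 11.22 and 11.26 in knockdown and 11.65 and 11.61 in control (log2 fold change -0.39, SE 0.0616, adjusted p = 0.0176). Atp6v1c1, a subunit that contacts the peripheral stalks, stood at 11.51 and 11.55 in knockdown and 11.98 and 11.83 in control (-0.375, SE 0.0746, adjusted p = 0.0309). Both genes were below control on both knockdown arrays. Atp6v1a, the catalytic subunit, had a log2 fold change of -0.105 (95% interval -0.3048 to 0.09477, adjusted p = 0.434), with overlapping groups.

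The V1 genes can be read by isoform. Of the 8 broadly expressed subunit genes (Atp6v1a, b2, c1, d, e1, f, g1 and h), 7 had a negative log2 fold change, 2 of them called, and the median was -0.2125. The 5 tissue-restricted isoforms (b1, c2, e2, g2 and g3) had 0 calls and log2 fold changes of 0.005 to 0.105, and 4 of the V1 genes, all of them such isoforms, were dim. Atp6v1d and Atp6v1b2 lay near the threshold (-0.28, adjusted p = 0.0567, and -0.22, adjusted p = 0.0896). Both were called lower with an intensity trend in the prior (adjusted p = 0.0334 and 0.0368).

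Of the 11 V0 and accessory genes, 2 fell, 1 rose and 8 did neither. Atp6ap2, an accessory subunit also called the prorenin receptor, had log2 values of 10.94 and 11.13 in knockdown and 11.53 and 11.59 in control (log2 fold change -0.525, SE 0.083, adjusted p = 0.0176). Atp6ap1, the other accessory subunit, stood at 12.07 and 12.00 in knockdown and 12.39 and 12.19 in control, a log2 fold change of -0.255 that did not pass the threshold (adjusted p = 0.112). For each, both knockdown arrays were below both control arrays. Atp6v0a4, an isoform of the a subunit known from kidney, was dim and fell at the edge of the threshold. It stood at 8.16 and 8.21 in knockdown and 8.50 and 8.42 in control (-0.275, SE 0.0654, adjusted p = 0.0489).

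Atp6v0e2, an isoform of the small e subunit, rose. Its log2 values were 10.00 and 10.02 in knockdown and 9.72 and 9.57 in control (log2 fold change 0.365, SE 0.0739, adjusted p = 0.0323). The other isoform, Atp6v0e, had a log2 fold change of 0.055 (95% interval -0.09162 to 0.2016), and the log2 ratio of e2 to e was -2.09 and -2.06 in knockdown and -2.30 and -2.47 in control. Among the a subunits that lie in the proton path, Atp6v0a1 had -0.085 (adjusted p = 0.488) and Atp6v0a2 0.14 (adjusted p = 0.238). Atp6v0b, of the proteolipid ring, had -0.355 (adjusted p = 0.0656) and Atp6v0d1, of the central stalk, -0.305 (adjusted p = 0.0689). These last 2 genes were below control on both knockdown arrays and were called lower with each array centred on its median (adjusted p = 0.0442 and 0.0392).

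For 3 members there were 2 probe sets each. The probe sets of Atp6v1f had log2 fold changes of -0.09 and -0.08, and those of Atp6v1g1 of -0.205 and -0.195. For Atp6v0a2 the brighter probe set gave 0.14 and the other -0.02, so that gene's small difference has no settled direction. M6pr, Atp6v0c and Slc11a1 are not analysed here.

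The promoters of the members were examined because the TFE factors are known to bind an E-box in them. RefSeq promoter windows of 300 bases (250 before the start site and 50 after, build GRCm38.p6) were at hand for 43 of the 56 members and for 15562 of the genes tested. The E-box letters CACGTG read the same on both strands. They occurred in a window of 11 members (25.6%), against 9.52% of all genes with a window, 12.1% of those not dim and 15.8% of those called lower. With the flanking base of the lysosomal element (TCACGTG on either strand, which contains the shorter motif) the counts were 10 members (23.3%), 5.36% of all genes, 7.14% of those not dim and 11% of those called lower. By call, 4 of the 15 members that fell and had a window held TCACGTG, and so did 6 of the 26 that did neither. Of the 18 that did neither and were not dim, 6 held it (33.3%), against 26.7% of the members that fell. A match describes the letters in the window and does not show binding.

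The 4 members that fell and held the motif were Clcn7, Clcn6, Cln3 and Mcoln1, and each held 2 copies of CACGTG in 1 window. Over all genes 0.951% held 2 or more copies, and over all genes called lower 3.11% did. Among the members that did neither, Lamp1 (4 copies) and Atp6v0b (2 copies) did. The first bases of the copies lay 22 bases apart in Clcn7, 23 in Clcn6, 26 in Mcoln1 and 28 in Cln3. The windows of these 4 genes are printed because the genes fell and hold TCACGTG. That of Lamp1 is printed because it holds more copies and the gene did not pass the threshold. Lamp1 was added after its values were seen, as was the count of copies. Capitals mark TCACGTG on either strand, so that TCACGTGA is a match on both.
Clcn7, chr17:25133141-25133440, plus strand: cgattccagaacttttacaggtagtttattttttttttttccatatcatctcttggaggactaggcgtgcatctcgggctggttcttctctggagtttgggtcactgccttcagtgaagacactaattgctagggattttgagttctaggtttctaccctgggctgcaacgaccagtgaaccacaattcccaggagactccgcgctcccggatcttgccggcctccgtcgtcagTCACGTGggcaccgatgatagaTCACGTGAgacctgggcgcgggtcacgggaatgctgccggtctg
Clcn6, chr4:148038764-148039063, minus strand: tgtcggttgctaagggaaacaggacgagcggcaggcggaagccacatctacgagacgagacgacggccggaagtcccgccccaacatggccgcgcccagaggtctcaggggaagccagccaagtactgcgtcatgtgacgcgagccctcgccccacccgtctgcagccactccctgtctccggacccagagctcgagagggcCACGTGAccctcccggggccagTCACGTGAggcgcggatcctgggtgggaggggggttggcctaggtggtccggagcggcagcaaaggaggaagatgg
Mcoln1, chr8:3500269-3500568, plus strand: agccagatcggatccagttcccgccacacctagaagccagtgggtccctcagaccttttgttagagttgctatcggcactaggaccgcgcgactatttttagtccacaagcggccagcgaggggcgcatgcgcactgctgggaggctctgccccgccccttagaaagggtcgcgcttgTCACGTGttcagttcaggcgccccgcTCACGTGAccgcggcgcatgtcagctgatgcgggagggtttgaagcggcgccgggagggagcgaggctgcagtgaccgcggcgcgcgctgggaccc
Cln3, chr7:126583187-126583486, minus strand: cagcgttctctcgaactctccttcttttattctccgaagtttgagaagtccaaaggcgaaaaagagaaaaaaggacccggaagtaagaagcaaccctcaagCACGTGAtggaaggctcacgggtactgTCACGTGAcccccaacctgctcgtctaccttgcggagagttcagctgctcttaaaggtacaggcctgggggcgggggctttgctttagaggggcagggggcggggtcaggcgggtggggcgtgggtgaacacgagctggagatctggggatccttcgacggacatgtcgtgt
Lamp1, chr8:13158911-13159210, plus strand: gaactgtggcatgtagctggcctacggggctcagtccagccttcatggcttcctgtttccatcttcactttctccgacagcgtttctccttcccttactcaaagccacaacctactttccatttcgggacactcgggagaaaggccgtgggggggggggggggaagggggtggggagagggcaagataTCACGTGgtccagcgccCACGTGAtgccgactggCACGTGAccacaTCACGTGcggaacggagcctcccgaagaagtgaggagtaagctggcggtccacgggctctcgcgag

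In these windows the paired E-boxes of Clcn6 began 48 and 25 bases before the start site and those of Mcoln1 71 and 45 bases before it. Those of Cln3 lay further out, at 149 and 121 bases. Clcn7 had 1 copy 15 bases before the start site and 1 just after it. Ctns, Slc17a5, Cln6 and Lamp2, with the largest falls besides Clcn7, held no CACGTG in their windows. That says only that these letters are not in the 300 bases read. Windows of members held a median of 17 CpG dinucleotides, against 15 over all windows of the genes tested and 21 over those of genes that were not dim. The windows of the members that fell held a median of 16.5 and those of the members that did neither 18.

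**Figure D4:**
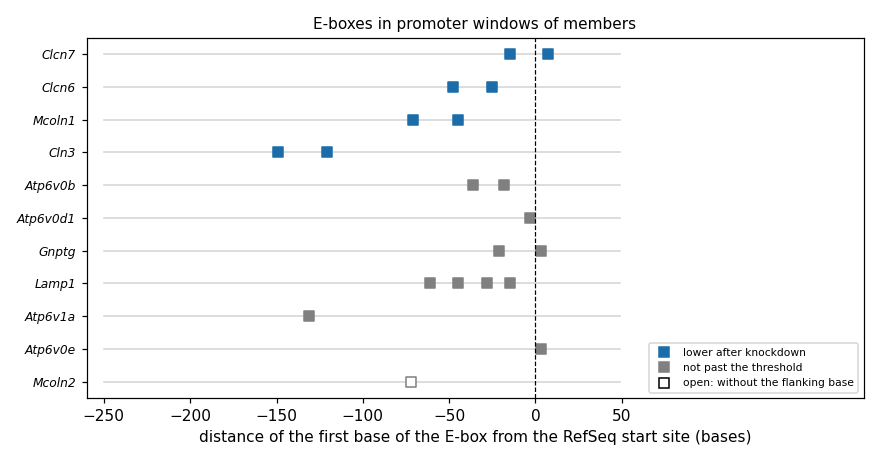
Position of each E-box in the promoter windows of the 11 members that hold one, in bases from the RefSeq start site (dashed line), ordered from the most negative log2 fold change at the top. The 4 members that fell (blue) each have 2 E-boxes, and the 7 that did not pass the threshold (grey) have from 1 to 4. The marks of Gnptg come from windows of 2 alternative start sites with 1 E-box each, and they can be the same E-box.

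Genes of the same pathway outside the members were counted from lists. Over all genes tested, 7.19% were called lower and 5.00% higher. Of the 11516 genes that were not dim, 1240 were called lower. Of 44 lysosomal hydrolases and cofactors, 17 fell, 0 rose and 27 did neither, with a median log2 fold change of -0.265. Hexa, a subunit of beta-hexosaminidase, stood at 10.98 and 10.69 in knockdown and 12.49 and 11.94 in control (-1.38, SE 0.19, adjusted p = 0.0133). Idua, which degrades glycosaminoglycans, had -1.265 (adjusted p = 0.00492), Arsa, the arylsulfatase of sulfatide breakdown, -0.83 (adjusted p = 0.00859) and the sialidase Neu1 -0.705 (adjusted p = 0.00843). Their groups did not overlap.

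Of 41 further lysosomal membrane genes outside the rule, 7 fell, 3 rose and 31 did neither, with a median of -0.10. Tmem106b, a regulator of lysosome size and position in neurons, had log2 values of 10.21 and 10.25 in knockdown and 11.43 and 11.10 in control (-1.035, SE 0.113, adjusted p = 0.00843). Slc46a3 had -0.91 (adjusted p = 0.00721), Slc38a9, the arginine sensor of the mTORC1 pathway, -0.645 (adjusted p = 0.0118) and the fusion protein gene Stx7 -0.475 (adjusted p = 0.0156). The 3 that rose were Mfsd12 (0.35, adjusted p = 0.0238), Tpcn1, an endolysosomal cation channel (0.345, adjusted p = 0.0273), and Slc48a1, a heme transporter (0.325, adjusted p = 0.0431), named after their values were seen. Of 11 assembly factors and regulators of the V-ATPase, 2 fell and 0 rose: Vma21, a chaperone that assembles V0 in the endoplasmic reticulum (-0.71, adjusted p = 0.0123), and Dmxl2, part of the complex that joins V1 to V0 (-0.55, adjusted p = 0.013). Slc38a9, Vma21 and Dmxl2 had 2 probe sets each, and only the brighter one is given. Of 14 genes for lysosome positioning and fusion, 1 fell, Vps39, a tethering subunit (-0.355, adjusted p = 0.0406), and the list's median was -0.0225. The share of this list called lower, 7.14%, was near the 7.19% of all genes.

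Of 18 TFE, folliculin and nutrient sensing genes, 8 fell, 1 rose and 9 did neither, with a median of -0.1875. Of the TFE factors, Tfeb and Tfe3 did not pass the threshold. Tfeb stood at 11.19 and 11.13 in knockdown and 10.98 and 10.95 in control (log2 fold change 0.195, adjusted p = 0.1), Tfe3 at 11.81 and 11.72 in knockdown and 11.89 and 11.87 in control (-0.115, adjusted p = 0.295). Mitf was lower, at 10.42 and 10.27 in knockdown and 11.01 and 10.74 in control (-0.53, SE 0.108, adjusted p = 0.0327). The gene that rose was Tfec, a further member of the family, which was dim (0.56, adjusted p = 0.034). Flcn, encoding folliculin, had -0.415 (adjusted p = 0.0432) and its partner genes Fnip1 and Fnip2 had -1.08 (adjusted p = 0.0074) and -0.635 (adjusted p = 0.0304). Rragd, a Rag GTPase, had -0.975 (adjusted p = 0.0142) and Lamtor3, of the Ragulator complex, -0.805 (adjusted p = 0.00998). Fnip1, Fnip2, Rragd and Lamtor3 were named as the called genes of the list with the largest changes. Of the 4 Rag genes, Rragc (-0.525, adjusted p = 0.0223) also fell, while Rraga (0.095) and Rragb (-0.26) did not pass, and of the 5 Ragulator genes Lamtor3 alone passed. Mitf, Lamtor1 and Lamtor3 had 2 probe sets each, and only the brighter one is given.

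**Figure D5:**
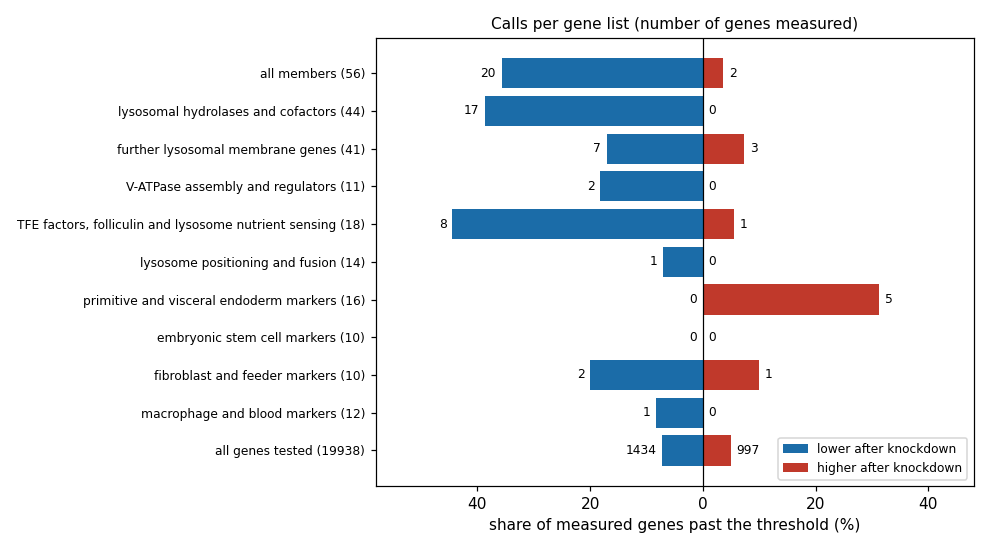
Share of the measured genes of each list that passed the threshold (%), lower after knockdown to the left and higher to the right, with the number of genes at each bar end and the number measured in brackets. The members have 20 lower and 2 higher of 56, the hydrolases 17 and 0 of 44, and all genes 1434 and 997 of 19938.

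Several endoderm markers were higher in knockdown cells. Of 16 primitive and visceral endoderm markers, a lineage rich in endocytic and lysosomal activity, 5 were higher, 0 lower and 11 neither. The shares over all genes tested were 5.00% higher and 7.19% lower. The mean log2 level of these endoderm markers was 9.41 to 9.687 in knockdown and 8.871 to 9.068 in control. Gata6, the regulator of this lineage, stood at 11.74 and 12.60 in knockdown and 10.07 and 10.04 in control (2.115, adjusted p = 0.0103). Dab2 (1.12), Col4a1 (0.535) and Sox17 (0.53) rose as well. Sox17 was dim and near the threshold (adjusted p = 0.0438). Dab2 had 2 probe sets, and the brighter one stood at 10.67 and 10.77 in knockdown and 9.97 and 9.23 in control. The list of 10 markers of fibroblasts and feeder cells had 1 gene higher, Twist1 (0.425), 2 lower, Pdgfrb (-0.52) and Acta2 (-0.41), and 7 neither, with mean levels of 8.145 to 8.182 in knockdown and 8.174 to 8.179 in control. The part of other cell types in the lysosomal result was not tested.

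The members also differed between replicates of a group. Control replicate 1 was higher than control replicate 2 for 44 of the 56 members, with a median difference of 0.10, against 0.01 over all genes. Knockdown replicate 1 was higher than knockdown replicate 2 for 31 members, with a median difference of 0.03. The members' median deviation from their own means was -0.06375 and -0.13 on the knockdown arrays and 0.14 and 0.0525 on the control arrays. Both control arrays thus lay above both knockdown arrays, with control replicate 2 and knockdown replicate 1 nearest to each other. Without control replicate 1 the median log2 fold change of the members was -0.155, and without control replicate 2 it was -0.24.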

How the data were processed

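Total RNA of 4 E14 cell samples was hybridised to 1 array each. The deposited table gives log2 expression for 35557 probe sets. Per the submitters' processing notes they come from Affymetrix Expression Console; no source used here gives its background step, summary method or scaling between arrays, and the log2 scale was read from the values. Of the probe sets, 21789 had 1 symbol in the platform annotation, 1621 several and 12147 none. The brightest probe set per symbol gave 19938 genes; all 56 members matched RefSeq by Entrez ID.

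The group difference was fitted per gene (limma 3.58.1 under R 4.3.3, lmFit then eBayes) with no covariate, and two-sided p-values were adjusted over all genes by the Benjamini-Hochberg method, with a threshold of 0.05. SE and 95% intervals are moderated, with 3.9 prior degrees of freedom. The procedure was run on simulated data with independent noise and planted changes, which does not test the calls made on these arrays. The members, lists and tests were chosen with earlier results of these data known. Named genes are Kdm2b, 3 core stem cell factors, every called member, fixed anchors of each role, up to 4 called genes of each further list (2 as values where none was called) and members near the threshold or with discordant probe sets or isoforms, these last chosen after their values were seen. Motifs were searched in RefSeq promoter windows. Alternatives were a replicate block, leaving out each array, quantile normalization, median centring, a filter on dim genes, the mean of probe sets, all probe sets together, a trended or robust prior and an adjusted p under 0.1.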

Additional observations from a re-analysis of the deposited data

How the results depend on the processing

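Under quantile normalization, median centring, the filter on dim genes, averaged probe sets and the trended and robust priors, every called member that was tested stayed called in its direction; Atp6v0a4 is dim and was not tested under that filter. With the replicate number as a block the counts were 0 higher and 0 lower for all genes and for members (2733 and 2678 genes and 3 and 29 members at an unadjusted p under 0.05, limma), and Kdm2b had -1.495 (adjusted p = 0.127). The block left 1 residual degree of freedom, and the SE of Kdm2b was 0.0487 with it, against 0.0661 in the main fit. The labels do not say that the numbers pair the arrays, and the same-numbered deviations correlated at 0.0954 over genes. With every probe set tested together the counts were also 0, with 4128 higher and 3614 lower at an unadjusted p under 0.05, and Kdm2b had -1.495 (adjusted p = 0.0679). Leaving out 1 array gave 0 calls each time (20 to 27 members lower and 1 to 3 higher at an unadjusted p under 0.05), with 1 residual degree of freedom and the lone array assumed to vary like the others; the members' median ran from -0.24 to -0.155 and Kdm2b from -1.545 to -1.445. At an adjusted p under 0.1, 1920 genes were higher and 2236 lower, with 3 and 25 members. Signs that turned belonged to uncalled members near 0. With arrays centred, Atp6v0d2 had -0.025, Atp6v1g2 -0.035, Atp6v1g3 -0.005 and Atp6v1h -0.02. After quantile normalization Atp6v0d2 had -0.02312 and Atp6v1g3 -0.025. With single arrays left out, log2 fold change of Atp6v0d2 ran from -0.01 to 0.04, log2 fold change of Atp6v1g2 from -0.02 to 0.03, log2 fold change of Atp6v1h from -0.015 to 0.055, log2 fold change of Mfsd8 from -0.01 to 0.17, log2 fold change of Abcb9 from -0.01 to 0.1 and log2 fold change of Atp6v1g3 from -0.03 to 0.1. The causes were not tested.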
